A study of Homo sapiens with 6 samples.

Results

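The genes described here encode collagens, laminins and other proteins of the extracellular matrix, together with the lysyl oxidases that cross-link them. They form a given list of 57 symbols among 58233 rows with an Ensembl identifier, and each symbol matched 1 row. They were measured in T24, an established line from a human transitional cell carcinoma of the urinary bladder. One group was T24 cells that stably express the constitutively active RhoC mutant Q63E (Q63E, 3 libraries), and it was set against T24 cells that stably express the vector (VEC, 3 libraries). Both groups were made with lentivirus and selected with puromycin. RhoC is a small GTPase that controls actin and contractility, and the Q63E form is kept in its active state. The comparison asks which matrix transcripts differ when active RhoC is overexpressed. The labels do not say that replicates were separate cultures, transductions or clones, so a p-value here reflects how far these 6 libraries vary, and that variation may be technical.

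The extracellular matrix takes a pair of main forms. The interstitial matrix is built of fibronectin, which cells assemble into fibres, and of fibrillar collagens, which lysyl oxidases cross-link. The basement membrane under an epithelium is a sheet in which a network of laminin trimers, each of an alpha, a beta and a gamma chain, is joined by nidogens and perlecan to a network of type IV collagen. Matricellular proteins such as tenascin C, SPARC and the thrombospondins bind this scaffold and change how cells attach to it. In urothelium, laminins and the anchoring collagens hold the basal cells to the tissue beneath, and carcinoma cells make many of these proteins themselves.

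Values are taken as FPKM (fragments scaled to transcript length and to the library's total), so that the level of one gene can be set beside that of another; no header or label names the unit. Totals per library ran from 723934 to 739218 in Q63E and from 743000 to 766917 in VEC over rows with an Ensembl identifier. RHOC itself had 1770.1, 1726 and 1744 FPKM in the Q63E libraries, against 232, 218 and 232 FPKM in the VEC libraries, so that the overexpressed gene matched the labels in each library. Genes of the mitochondrial chromosome held 5.60% to 6.29% of the total in Q63E and 8.48% to 9.48% in VEC. When libraries were scaled to equal totals without these genes, each of the 38 matrix genes tested below kept its direction and its side of the threshold. How the difference arose was not tested. Of 15 urothelial and epithelial markers, KRT7, KRT8, KRT18 and PPARG were well above 1 FPKM. In contrast, 8 had a mean below 0.1 FPKM, namely KRT5, KRT13, KRT20, UPK1B, UPK2, UPK3A, TP63 and CDH1. GATA3 averaged 0.363 ± 0.352 FPKM in Q63E and 1.79 ± 1.40 FPKM in VEC (SD, n = 3 each). EPCAM averaged 1.52 ± 0.202 FPKM in Q63E and 0.313 ± 0.0404 FPKM in VEC, and UPK1A 0.287 ± 0.268 FPKM in Q63E and 0.177 ± 0.225 FPKM in VEC. The summed level of these 15 markers was 3209 to 3317 FPKM in Q63E and 2123 to 2166 FPKM in VEC. KRT7, KRT8 and KRT18 held nearly all of it, so the sum says little of the other markers. Of 12 fibroblast and mural cell markers that are not matrix genes, 8 had a mean below 0.1 FPKM, PDGFRA, FAP and THY1 among them. The sum was 7.51 to 10.1 FPKM in Q63E and 10.4 to 11.2 FPKM in VEC, and ACTA2, CSPG4 and RGS5 held most of it. ACTA2 averaged 4.06 ± 0.169 FPKM in Q63E and 6.46 ± 0.61 FPKM in VEC (SD, n = 3 each). CSPG4 averaged 1.97 ± 0.159 FPKM in Q63E and 3.41 ± 0.197 FPKM in VEC, and RGS5 2.40 ± 1.27 FPKM in Q63E and 0.617 ± 0.290 FPKM in VEC. The 10 endothelial markers summed to 0.57 to 1.59 FPKM in Q63E and 1.25 to 1.79 FPKM in VEC. The 12 leukocyte markers summed to 9.97 to 11.4 FPKM in Q63E and 18.8 to 20.0 FPKM in VEC. CD68, a lysosomal protein that many cells express, held most of this, and PTPRC was listed at 0 in all 6 libraries. How far these marker levels bear on the matrix genes was not tested.

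The promoters below belong to the genes on which the results turn, and are given for their arrangement. Type IV collagen genes lie in head-to-head pairs. By RefSeq starts, COL4A1 and COL4A2 on chromosome 13 are divergent with 126 bases between them, COL4A6 and COL4A5 on chromosome X with 379 bases, and COL4A4 and COL4A3 on chromosome 2 with 418 bases. A second start of COL4A6 lies 1415 bases from that of COL4A5. For the first pair the whole stretch between the starts is printed, and for the others the 250 bases before the start of a gene. LAMA5 and LAMB1 are the laminin chains that rose most among those above 10 FPKM, TNC had the largest fall of the tested matrix genes on the log2(FPKM + 1) scale, and LOX was the only tested lysyl oxidase that rose. The COL4A5 and COL4A6 stretches overlap on opposite strands. All are written 5′ to 3′ on the strand of the gene (of COL4A2 for the first), from the RefSeq table on GRCh38.p14. Capitals mark matches on either strand to GGGCGG (the GC box bound by Sp1) or ACGTG (a core of hypoxia response elements).
COL4A1 to COL4A2, chr13:110307158-110307283, plus strand: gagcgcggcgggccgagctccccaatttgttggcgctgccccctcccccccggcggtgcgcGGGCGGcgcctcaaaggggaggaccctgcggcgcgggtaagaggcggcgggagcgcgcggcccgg
COL4A6, chrX:108439459-108439708, minus strand: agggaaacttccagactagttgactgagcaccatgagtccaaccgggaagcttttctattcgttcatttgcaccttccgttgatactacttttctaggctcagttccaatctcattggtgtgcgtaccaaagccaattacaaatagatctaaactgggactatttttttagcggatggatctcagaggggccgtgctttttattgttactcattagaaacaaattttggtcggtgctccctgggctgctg
COL4A5, chrX:108439588-108439837, plus strand: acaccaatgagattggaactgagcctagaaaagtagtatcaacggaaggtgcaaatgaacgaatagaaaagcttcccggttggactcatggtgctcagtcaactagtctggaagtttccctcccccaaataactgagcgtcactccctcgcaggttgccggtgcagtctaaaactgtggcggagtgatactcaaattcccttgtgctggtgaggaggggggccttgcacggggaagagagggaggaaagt
LAMA5, chr20:62367313-62367562, minus strand: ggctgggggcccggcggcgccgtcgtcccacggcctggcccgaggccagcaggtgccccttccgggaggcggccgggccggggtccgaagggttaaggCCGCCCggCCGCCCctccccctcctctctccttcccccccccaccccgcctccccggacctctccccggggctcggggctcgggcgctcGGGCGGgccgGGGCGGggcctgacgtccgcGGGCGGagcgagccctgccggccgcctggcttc
LAMB1, chr7:108003162-108003411, minus strand: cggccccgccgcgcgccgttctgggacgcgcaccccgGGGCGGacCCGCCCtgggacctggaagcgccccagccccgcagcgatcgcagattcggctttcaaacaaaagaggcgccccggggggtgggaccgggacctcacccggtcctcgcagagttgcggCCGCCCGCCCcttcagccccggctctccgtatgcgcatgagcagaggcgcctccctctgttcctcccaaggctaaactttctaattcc
TNC, chr9:115118158-115118407, minus strand: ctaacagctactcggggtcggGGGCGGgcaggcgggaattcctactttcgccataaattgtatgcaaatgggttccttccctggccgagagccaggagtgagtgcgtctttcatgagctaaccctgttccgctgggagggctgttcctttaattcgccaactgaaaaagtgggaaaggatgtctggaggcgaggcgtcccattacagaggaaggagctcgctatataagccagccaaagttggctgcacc
LOX, chr5:122078260-122078509, minus strand: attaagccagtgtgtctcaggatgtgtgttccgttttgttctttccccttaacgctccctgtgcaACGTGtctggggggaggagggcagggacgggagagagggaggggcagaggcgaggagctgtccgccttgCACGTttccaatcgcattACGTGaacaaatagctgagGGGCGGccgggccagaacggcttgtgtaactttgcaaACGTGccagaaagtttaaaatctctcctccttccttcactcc
The LOX stretch held 4 matches to ACGTG, at positions −185, −116, −98 and −42 from the start, and 1 to GGGCGG. LAMA5 held 5 and LAMB1 4 matches to GGGCGG, which overlapped in part in LAMB1. TNC and the stretch between COL4A1 and COL4A2 held 1 each. The stretches before COL4A5 and COL4A6 held 0 matches to either, and likewise 0 to the other motifs searched on both strands. Those were TGAGTCA for AP-1, GGAATG for TEAD factors and GCGTG for hypoxia response elements, besides the CArG box and the NF-kB site by name. The stretch before the second start of COL4A6, which is not printed, held a match to GGGCGG at position −45. Among 35116 promoter windows of 300 bases in the table (250 before and 50 after the start), 45.0% held GGGCGG and 21.4% ACGTG at least once. TGAGTCA was held by 4.95% of them, GGAATG by 14.0%, the letters GCGTG by 36.5%, a CArG box by 1.29% and an NF-kB site by 11.3%. Of the 42 matrix genes with a window, GGGCGG was found in 9 of 13 windows of genes that rose, in 5 of 11 windows of genes that fell and in 12 of 13 windows of genes that did not pass. ACGTG was found in 5 of 13 windows of genes that rose, which belong to 3 genes, and in 0 of the windows of tested genes that fell or did not pass. It was also found in 4 of 13 windows of matrix genes that were not tested, which belong to 3 genes. LOX gives more than 1 of the windows of genes that rose, and those at its further starts overlap. GCGTG was found in 5 of 13 windows of genes that rose, 3 of 11 of genes that fell and 5 of 13 of genes that did not pass. A match is a run of letters and not a measured binding site.

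Of the 57 matrix genes, 38 had a mean of at least 1 FPKM over the 6 libraries and were tested, and 19 lay under this filter. The test was limma on log2(FPKM + 1), two-sided, across 13346 genes, with p adjusted by Benjamini-Hochberg over all of them and called at 0.05. In it, 14 matrix genes were higher and 14 lower in Q63E, 28 of 38 in all (73.7%), beside 25.3% of all genes tested. Over all genes, 11.3% were higher and 14.0% lower. The 3 Q63E libraries lay on one side of the 3 VEC libraries for 30 of the 38 (78.9%), beside 43.9% of all genes. A call, groups apart and a log2 fold change of at least 0.5 in size held for 17 of the 38, beside 9.93% of all genes. The median log2 fold change of the 38 was 0.092, beside −0.0023 for all genes, and the median absolute log2 fold change was 0.49, beside 0.19. Rises and falls were thus equal in number, and 7 of the 9 protein classes held both. The list was given with results of these data known, so these counts describe it and are not a test of it. Fold changes are differences of log2(FPKM + 1), Q63E minus VEC, and understate the change of genes at low levels. In bulk RNA, fewer cells of one kind and less RNA per cell cannot be told apart.

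**Figure D1:**
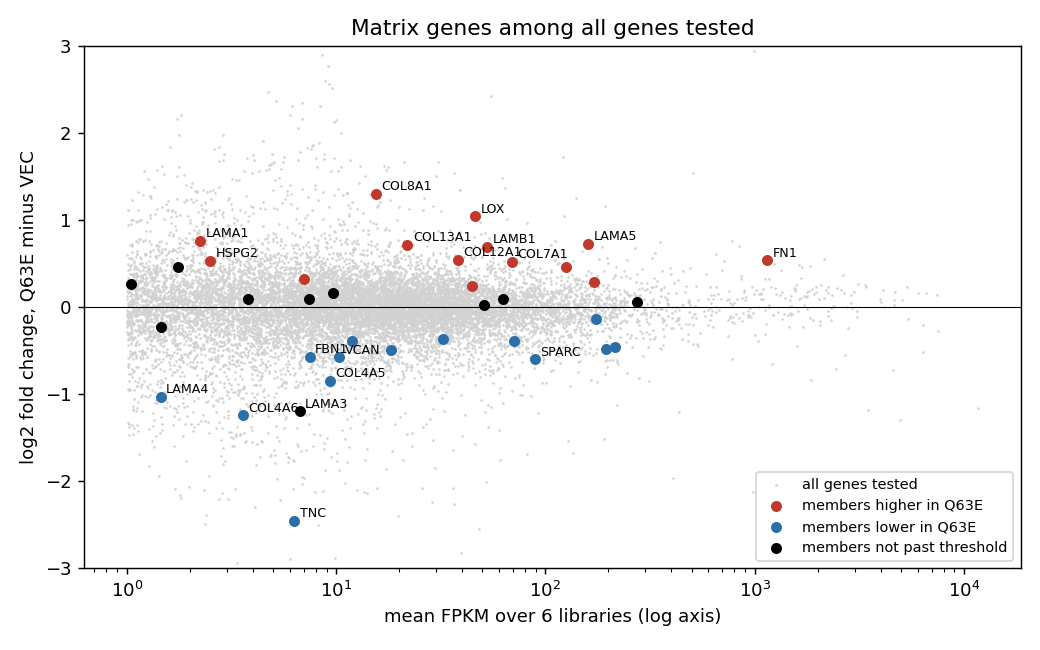
Each point is a gene, with the mean FPKM over the 6 libraries on a log x axis and the log2 fold change of Q63E over VEC on the y axis; grey points are all 13346 genes tested (13 lie outside the plotted range of −3 to 3), and large points are the 38 tested matrix genes, named where the change is at least 0.5 in size. TNC lies lowest at −2.45, COL8A1 highest at 1.30, and FN1 has the highest level of the matrix genes.

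Fibrillar and fibril-associated collagens were scarce, with the exception of COL5A2 and COL12A1. Of 8 genes, 4 were tested, 1 rose and 1 fell. COL12A1, a fibril-associated collagen that bridges type I fibrils and their surroundings, had 47.6, 44.4 and 44.5 FPKM in the Q63E libraries, against 31.3, 30.6 and 30.8 FPKM in the VEC libraries. The groups did not overlap, and the rise was 1.47-fold (log2 fold change 0.54, SE 0.045, adjusted p = 0.000553). COL5A2, a chain of the type V collagen that starts and limits fibrils, fell to 28.1 ± 0.967 FPKM in Q63E, against 36.4 ± 0.656 FPKM in VEC (SD, n = 3 each; log2 fold change −0.36, SE 0.045, adjusted p = 0.0024). Its partner chain COL5A1 was at 0.01 to 0.03 FPKM in all 6 libraries. COL1A1, the alpha 1 chain of type I collagen, had 1.57, 2.63 and 2.42 FPKM in the Q63E libraries, against 1.15, 1.29 and 1.46 FPKM in the VEC libraries. Its groups did not overlap but the difference did not pass (log2 fold change 0.47, SE 0.18, adjusted p = 0.105). COL16A1, another fibril-associated collagen, had 4.23, 3.66 and 3.94 FPKM in the Q63E libraries, against 3.13, 3.26 and 4.60 FPKM in the VEC libraries, with overlap and no call (log2 fold change 0.10, adjusted p = 0.668). COL1A2, COL3A1 and COL11A1, chains of the fibrils of connective tissue and cartilage, stayed at or below 0.67 FPKM in every library.

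Of the type IV collagens of the basement membrane, COL4A5 and COL4A6, which assemble into one kind of network, both fell, and COL4A2 rose. COL4A6 had 1.77, 1.76 and 1.64 FPKM in the Q63E libraries, against 6.16, 5.31 and 4.93 FPKM in the VEC libraries, and COL4A5 had 6.15, 7.06 and 5.92 FPKM in the Q63E libraries, against 12.6, 10.8 and 13.4 FPKM in the VEC libraries. In both genes every Q63E library lay below every VEC library. COL4A6 fell 3.17-fold (log2 fold change −1.24, SE 0.12, adjusted p = 0.000775) and COL4A5 1.93-fold (log2 fold change −0.85, SE 0.10, adjusted p = 0.00226). COL4A1 and COL4A2 form the network found in nearly all basement membranes, and they lie across the 126-base stretch printed above. COL4A2 had 50.4, 49.2 and 46.0 FPKM in the Q63E libraries, against 39.9, 42.4 and 40.0 FPKM in the VEC libraries, a 1.19-fold rise (log2 fold change 0.24, SE 0.051, adjusted p = 0.0161) whose call was lost without VEC replicate 1 (0.05004), VEC replicate 3 (0.056), Q63E replicate 1 (0.0557) or Q63E replicate 2 (0.0523), the adjusted p in brackets. COL4A1 had 10.4, 9.91 and 10.5 FPKM in the Q63E libraries, against 8.55, 10.1 and 8.73 FPKM in the VEC libraries. It was higher in mean but its groups overlapped and it did not pass (log2 fold change 0.16, SE 0.080, adjusted p = 0.202). The ratio of COL4A1 to COL4A2 levels was 0.201 to 0.229 in Q63E and 0.214 to 0.237 in VEC, whereas that of COL4A5 to COL4A6 was 3.48 to 4.01 in Q63E and 2.04 to 2.72 in VEC. COL4A3 was listed at 0 in all 6 libraries and COL4A4 did not exceed 0.08 FPKM.

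Summed over the type IV chains, the groups overlapped, at 66.9 ± 2.50 FPKM in Q63E and 67.7 ± 0.841 FPKM in VEC (SD, n = 3 each), while the shares of COL4A2, COL4A5 and COL4A6 did not overlap. COL4A5 held 9.53% ± 0.76 in Q63E and 18.2% ± 2.19 in VEC, and COL4A6 2.58% ± 0.0148 in Q63E and 8.08% ± 0.95 in VEC. COL4A2 held 72.5% ± 0.831 in Q63E and 60.2% ± 1.33 in VEC. These shares are a description of the listed FPKM, without a test.

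Among the other collagens 3 rose, 3 fell and 1 did not pass of 7 tested. COL8A1, a short-chain collagen of vessel walls and of the membrane under the corneal endothelium, had the largest rise among the 38 tested genes on the log2(FPKM + 1) scale. It had 20.0, 23.6 and 23.7 FPKM in the Q63E libraries, against 8.69, 8.75 and 8.01 FPKM in the VEC libraries. The groups were far apart, with a 2.64-fold difference (log2 fold change 1.30, SE 0.084, adjusted p = 0.000234). COL13A1, a transmembrane collagen of adhesion sites, had 28.0, 26.5 and 28.0 FPKM in the Q63E libraries, against 14.7, 16.8 and 17.6 FPKM in the VEC libraries, a 1.68-fold rise without overlap (log2 fold change 0.72, SE 0.074, adjusted p = 0.00112). COL7A1, which forms the anchoring fibrils under squamous and some other epithelia, had 81.4, 84.0 and 80.5 FPKM in the Q63E libraries, against 58.0, 53.1 and 59.4 FPKM in the VEC libraries. It rose 1.44-fold (log2 fold change 0.52, SE 0.051, adjusted p = 0.000964), and the tested genes around it had a median log2 fold change of 0.38. COL17A1, the transmembrane collagen of hemidesmosomes, fell to 10.2 ± 0.487 FPKM in Q63E, against 13.7 ± 0.666 FPKM in VEC (SD, n = 3 each; log2 fold change −0.39, adjusted p = 0.00782).

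Type VI collagen makes beaded filaments next to basement membranes, from chains that include COL6A1 and COL6A2. COL6A2 fell to 163 ± 11.6 FPKM in Q63E, against 227 ± 8.10 FPKM in VEC (SD, n = 3 each; log2 fold change −0.48, SE 0.059, adjusted p = 0.0022). COL6A1 averaged 167 ± 4.98 FPKM in Q63E and 183 ± 3.06 FPKM in VEC (log2 fold change −0.14, SE 0.035, adjusted p = 0.0325). This small fall passed, and its call was lost without VEC replicate 1 (0.0802), VEC replicate 2 (0.0542), VEC replicate 3 (0.1), Q63E replicate 1 (0.0826) or Q63E replicate 3 (0.0922), and also with quantile normalization (0.103) or with libraries scaled to equal totals (0.088). COL6A3 did not exceed 0.19 FPKM in any library. COL18A1, a basement membrane collagen whose end fragment is endostatin, had 52.7, 50.2 and 51.3 FPKM in the Q63E libraries, against 49.9, 51.7 and 50.1 FPKM in the VEC libraries. Its groups overlapped (log2 fold change 0.023, SE 0.039, adjusted p = 0.706). On the opposite strand it shares exon positions with SLC19A1, a folate carrier gene that averaged 11.1 ± 1.15 FPKM in Q63E and 18.6 ± 2.33 FPKM in VEC, and without a stated strand reads there can be shared. COL8A2 stayed at or below 0.2 FPKM.

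**Figure D2:**
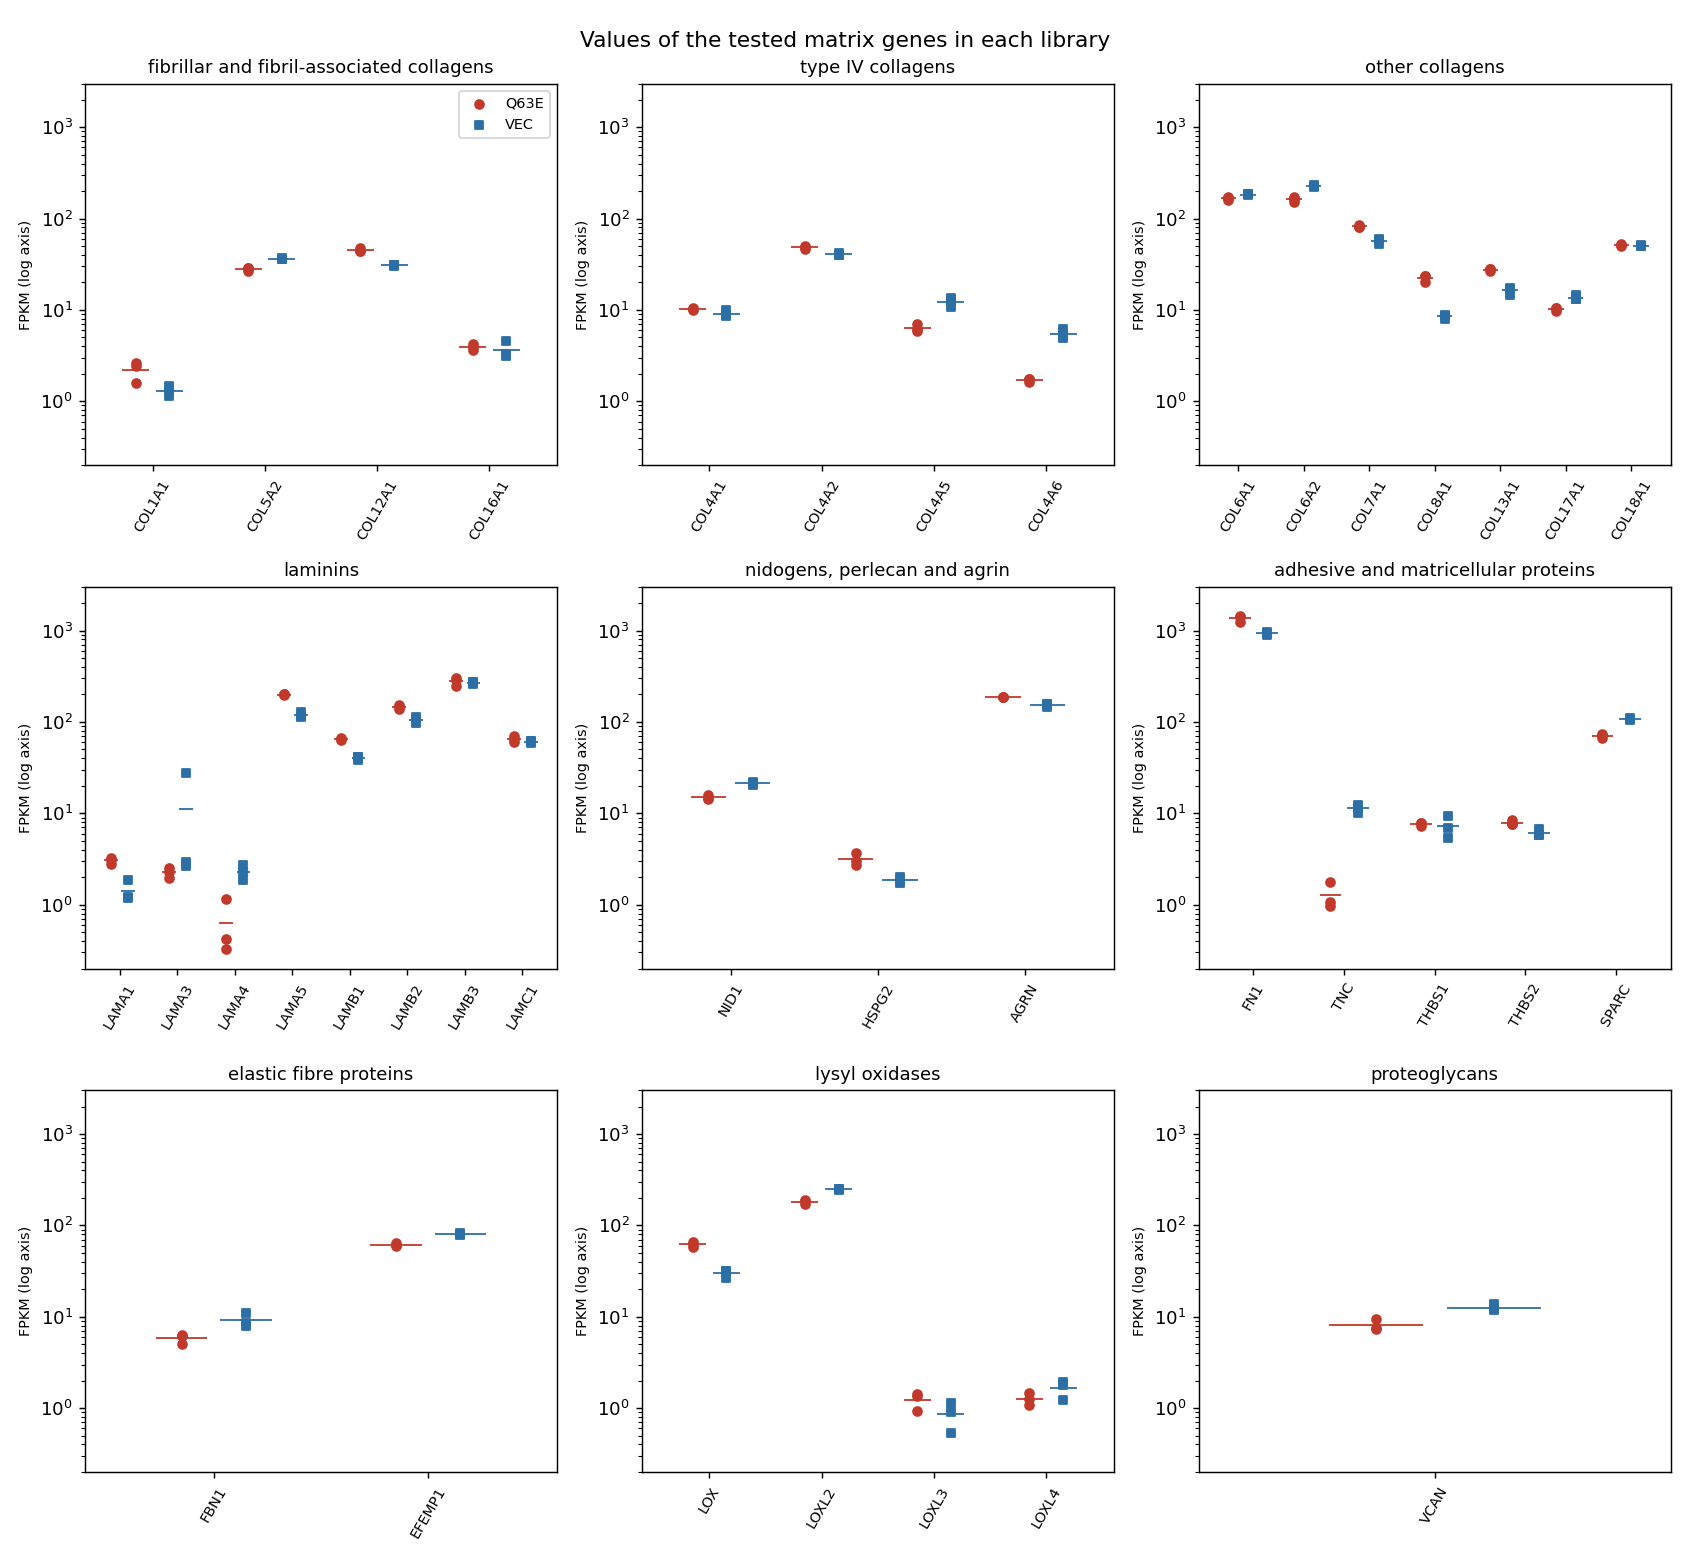
FPKM (log y axis) of the 38 tested matrix genes in each library, in 9 panels by protein class; red circles are the 3 Q63E libraries and blue squares the 3 VEC libraries, and bars mark group means. For LAMA3, VEC replicate 3 stands at 27.8 FPKM, far from the other VEC libraries.

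Among the laminins, LAMA5 and LAMB1 rose most at levels above 10 FPKM. Of 9 genes, 8 were tested, 4 rose and 1 fell. LAMA5, the alpha chain of the laminins of mature epithelial and vascular basement membranes, had 202, 195 and 201 FPKM in the Q63E libraries, against 113, 118 and 130.1 FPKM in the VEC libraries. It rose 1.66-fold without overlap (log2 fold change 0.73, SE 0.056, adjusted p = 0.000422). LAMB1, a beta chain that joins LAMA5 and LAMC1 in one trimer, had 62.9, 67.3 and 65.7 FPKM in the Q63E libraries, against 38.0, 41.1 and 40.9 FPKM in the VEC libraries, a 1.63-fold rise, again without overlap (log2 fold change 0.69, SE 0.049, adjusted p = 0.000327). LAMC1, the gamma chain of the same trimer, had 64.5, 70.2 and 60.2 FPKM in the Q63E libraries, against 58.9, 62.3 and 61.4 FPKM in the VEC libraries, and did not pass (log2 fold change 0.091, SE 0.062, adjusted p = 0.332). Exons of LAMA5 overlap on the other strand with ADRM1, a proteasome receptor gene that rose to 255 ± 6.58 FPKM in Q63E, against 225 ± 5.55 FPKM in VEC (log2 fold change 0.18, adjusted p = 0.0135). Those of LAMB1 overlap with DLD, which averaged 87.8 ± 2.53 FPKM in Q63E and 96.7 ± 8.29 FPKM in VEC, and with a gene without a name here that averaged 2.22 ± 0.803 FPKM in Q63E and 1.29 ± 0.315 FPKM in VEC. Neither of these passed, and without a stated strand setting reads in the overlaps can be shared.

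LAMA1, an alpha chain of early embryonic basement membranes, had 3.12, 2.79 and 3.28 FPKM in the Q63E libraries, against 1.17, 1.88 and 1.21 FPKM in the VEC libraries. This 2.16-fold rise at a low level passed (log2 fold change 0.76, SE 0.16, adjusted p = 0.016), and its call was lost without VEC replicate 3 (0.0511), Q63E replicate 1 (0.0554) or Q63E replicate 3 (0.0572). LAMB2 averaged 146 ± 6.98 FPKM in Q63E and 106 ± 7.17 FPKM in VEC (SD, n = 3 each), a 1.38-fold rise (log2 fold change 0.46, SE 0.061, adjusted p = 0.00291). The tested genes around LAMB2 had a median log2 fold change of 0.36, and with it subtracted the call was lost (log2 fold change 0.10, adjusted p = 0.295). LAMA4, the alpha chain of endothelial and mesenchymal laminins, fell 3.58-fold, with 0.42, 0.33 and 1.15 FPKM in the Q63E libraries, against 2.69, 2.26 and 1.86 FPKM in the VEC libraries (log2 fold change −1.03, SE 0.23, adjusted p = 0.0213). Its Q63E mean of 0.633 FPKM was below 1, so LAMA4 met the filter only through the VEC libraries, which averaged 2.27 FPKM. The groups did not overlap, though Q63E replicate 3 stood above the other Q63E libraries, and the call was lost without VEC replicate 1 (0.067), VEC replicate 2 (0.0611), Q63E replicate 1 (0.067) or Q63E replicate 2 (0.0595). LAMA2 did not exceed 0.3 FPKM.

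LAMA3 and LAMB3, which join in the laminin of hemidesmosomes, did not pass. LAMB3 was the most abundant laminin transcript and had 287, 305 and 250.3 FPKM in the Q63E libraries, against 272, 257 and 276 FPKM in the VEC libraries, with overlapping groups (log2 fold change 0.061, SE 0.075, adjusted p = 0.593). LAMA3, its alpha partner, had 2.54, 1.97 and 2.26 FPKM in the Q63E libraries, against 2.66, 2.90 and 27.8 FPKM in the VEC libraries. The groups did not overlap, but VEC replicate 3 stood far above the other VEC libraries, and the difference did not pass (log2 fold change −1.20, SE 0.77, adjusted p = 0.307). Without VEC replicate 3 the log2 fold change of LAMA3 was −0.22 (adjusted p = 0.351). In the 10 tested genes nearest to LAMA3, VEC replicate 3 differed from the mean of the other VEC libraries by a median log2 ratio of −0.0061, against 2.93 for LAMA3.

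As shares of the summed laminin alpha level, LAMA5 held 97.0% ± 0.399 in Q63E and 89.9% ± 7.89 in VEC (SD, n = 3 each). Without VEC replicate 3 its VEC share was 94.4%. LAMB1 held 13.3% ± 0.691 in Q63E and 9.66% ± 0.488 in VEC of the beta level, and LAMB3 57.0% ± 3.20 in Q63E and 64.8% ± 1.94 in VEC. The summed alpha level was 206 ± 4.62 FPKM in Q63E and 135 ± 22.7 FPKM in VEC, and the beta level 492 ± 21.5 FPKM in Q63E and 414 ± 3.37 FPKM in VEC.

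**Figure D3:**
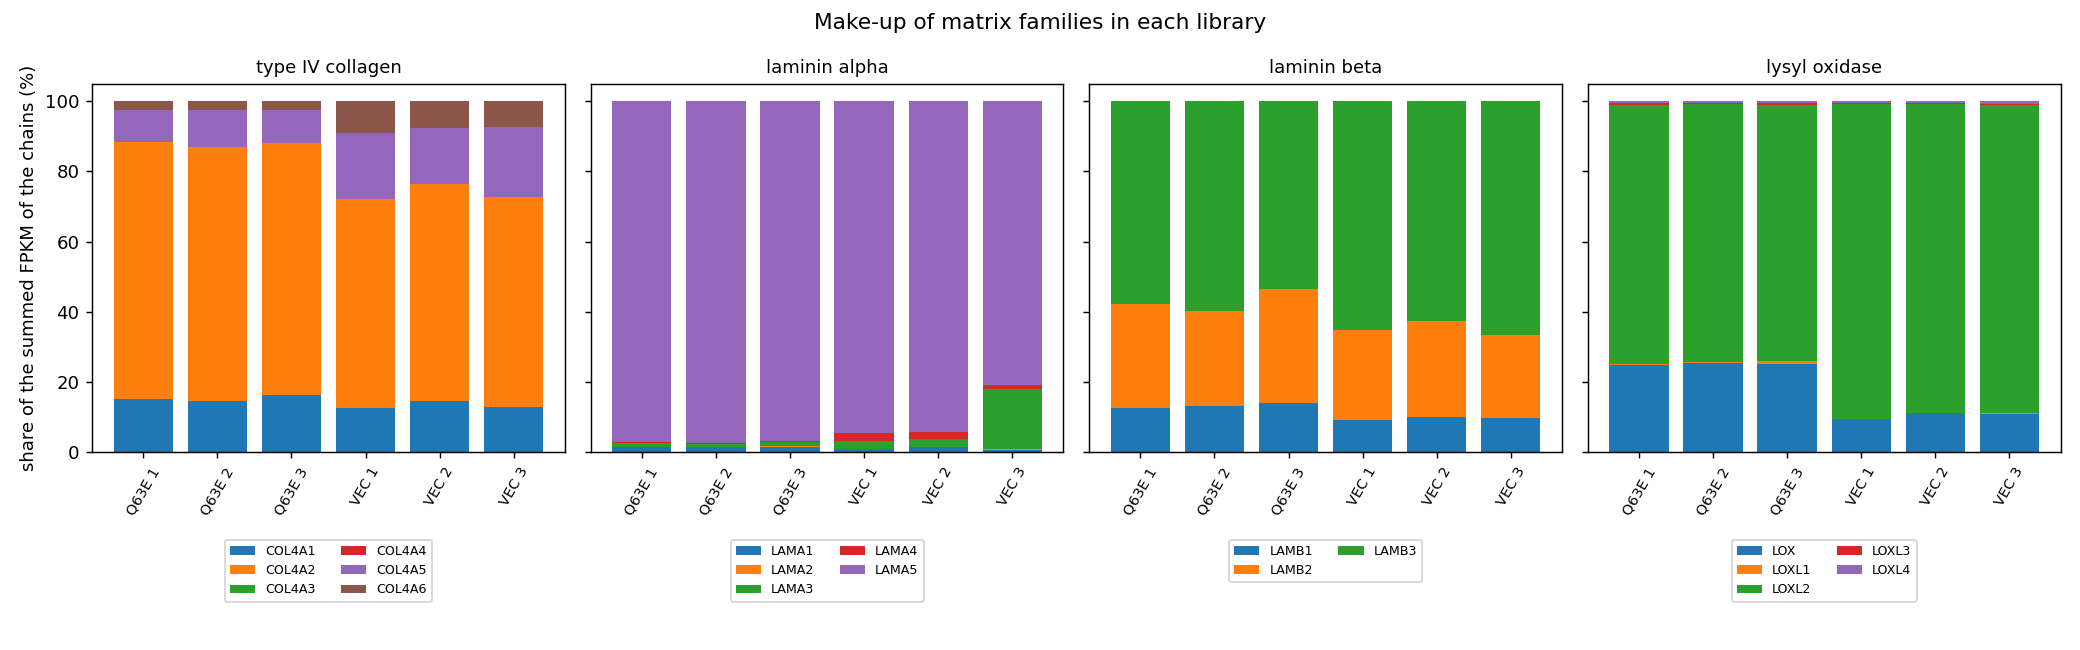
Stacked bars give each chain's share of the summed FPKM of its family (y axis, percent, from 0) in each library, the 3 Q63E libraries left of the 3 VEC libraries, for type IV collagens, laminin alpha and beta chains and lysyl oxidases. COL4A5 and COL4A6 take less, and LOX more, in each Q63E library than in any VEC library, and LAMA3 takes 17.3% in VEC replicate 3 alone.

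Nidogen 1 and the heparan sulfate proteoglycans of basement membranes went different ways. NID1 (nidogen 1), which binds laminin and type IV collagen, averaged 15.0 ± 0.952 FPKM in Q63E and 21.5 ± 0.837 FPKM in VEC (SD, n = 3 each). This was a 1.43-fold fall without overlap (log2 fold change −0.49, SE 0.065, adjusted p = 0.00279). AGRN (agrin), a heparan sulfate proteoglycan that binds laminin and dystroglycan, was one of the most abundant members and rose 1.23-fold to 188 ± 0.807 FPKM in Q63E, against 154 ± 6.47 FPKM in VEC (log2 fold change 0.29, SE 0.039, adjusted p = 0.00302). HSPG2 (perlecan), the other large heparan sulfate proteoglycan, had 2.70, 3.69 and 3.04 FPKM in the Q63E libraries, against 1.99, 1.71 and 1.86 FPKM in the VEC libraries. It rose 1.70-fold at a low level (log2 fold change 0.53, SE 0.14, adjusted p = 0.0321), and the call was lost without VEC replicate 1 (0.0597), VEC replicate 2 (0.0853), VEC replicate 3 (0.0785), Q63E replicate 2 (0.0919) or Q63E replicate 3 (0.079). NID2 had 0.02, 0 and 0.1 FPKM in the Q63E libraries, against 0.08, 0.09 and 0.01 FPKM in the VEC libraries, and lay under the filter.

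FN1 (fibronectin), which cells pull into fibrils through integrins, was by far the most abundant matrix transcript. FN1 had 1401, 1453 and 1236 FPKM in the Q63E libraries, against 953, 902 and 959 FPKM in the VEC libraries. Each Q63E library lay above each VEC library, a 1.45-fold rise (log2 fold change 0.54, SE 0.065, adjusted p = 0.00211). It held 39.9% ± 1.36 in Q63E and 31.9% ± 0.741 in VEC of the summed level of the 57 genes (SD, n = 3 each). That sum was 3415 ± 171 FPKM in Q63E and 2942 ± 63.2 FPKM in VEC.

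Of the tested matricellular genes, TNC and SPARC fell, THBS2 rose and THBS1 did not pass. TNC (tenascin C), a protein of healing and tumour matrix that weakens attachment to fibronectin, had the largest fall among the 38 tested genes on the log2(FPKM + 1) scale. It had 1.76, 1.08 and 0.98 FPKM in the Q63E libraries, against 10.1, 12.4 and 11.5 FPKM in the VEC libraries, an 8.91-fold fall with groups far apart (log2 fold change −2.45, SE 0.16, adjusted p = 0.000227). SPARC (osteonectin), a collagen-binding matricellular protein, had 66.9, 71.3 and 73.8 FPKM in the Q63E libraries, against 105, 109.6 and 108 FPKM in the VEC libraries. It fell 1.52-fold without overlap (log2 fold change −0.60, SE 0.046, adjusted p = 0.000425). SPOCK1 (testican-1), a proteoglycan related to SPARC, had 0.02, 0.06 and 0.12 FPKM in the Q63E libraries, against 0.86, 1.51 and 0.85 FPKM in the VEC libraries, and its mean of 0.57 FPKM left it under the filter. With no filter on low values its log2 fold change was −0.94 (limma, adjusted p = 0.0132). THBS2 (thrombospondin 2) averaged 7.93 ± 0.42 FPKM in Q63E and 6.12 ± 0.571 FPKM in VEC (log2 fold change 0.33, SE 0.090, adjusted p = 0.0398), and this call was lost without VEC replicate 2 (0.106), VEC replicate 3 (0.11), Q63E replicate 1 (0.0831), Q63E replicate 2 (0.115) or Q63E replicate 3 (0.0865). THBS1 (thrombospondin 1), which can activate latent TGF-beta, had 7.27, 7.80 and 7.75 FPKM in the Q63E libraries, against 5.40, 9.30 and 6.97 FPKM in the VEC libraries, with overlap and no call (log2 fold change 0.092, SE 0.17, adjusted p = 0.727). POSTN (periostin) did not exceed 0.05 FPKM.

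Of the 5 elastic fibre genes, FBN1 and EFEMP1 were tested and both fell, and 3 lay under the filter. FBN1 (fibrillin 1), the core of microfibrils, had 4.97, 6.18 and 6.26 FPKM in the Q63E libraries, against 7.97, 8.65 and 10.9 FPKM in the VEC libraries. The fall was 1.58-fold (log2 fold change −0.57, SE 0.14, adjusted p = 0.0244), and its call was lost without VEC replicate 2 (0.0546), VEC replicate 3 (0.0593), Q63E replicate 1 (0.0694), Q63E replicate 2 (0.0511) or Q63E replicate 3 (0.0502). EFEMP1 (fibulin 3) averaged 61.4 ± 3.18 FPKM in Q63E and 80.4 ± 1.31 FPKM in VEC (SD, n = 3 each), a 1.31-fold fall (log2 fold change −0.38, SE 0.047, adjusted p = 0.00214). FBN2 and ELN (elastin) were listed at 0 in all 3 Q63E libraries, against 0 to 0.03 FPKM and 0 to 0.17 FPKM in VEC. EMILIN1, a glycoprotein of elastic fibres, had 0.37, 0.45 and 0.6 FPKM in the Q63E libraries, against 0.19, 0.5 and 0.33 FPKM in the VEC libraries, with overlap. Among the proteoglycans VCAN (versican), a large hyaluronan-binding one, had 7.59, 9.44 and 7.38 FPKM in the Q63E libraries, against 11.8, 12.1 and 13.9 FPKM in the VEC libraries. It fell 1.55-fold without overlap (log2 fold change −0.58, SE 0.11, adjusted p = 0.0119). BGN (biglycan), a small leucine-rich proteoglycan, had 0.32, 0.74 and 0.43 FPKM in the Q63E libraries, against 0.44, 0.4 and 0.95 FPKM in the VEC libraries, and its relatives DCN (decorin) and LUM (lumican), products of fibroblasts, did not exceed 0.21 FPKM.

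Lysyl oxidases deaminate lysines of collagen and elastin so that cross-links can form, and the abundant members LOX and LOXL2 moved in opposite directions. LOX had 62.8, 66.3 and 58.1 FPKM in the Q63E libraries, against 26.7, 31.3 and 31.5 FPKM in the VEC libraries. It rose 2.09-fold with no overlap (log2 fold change 1.04, SE 0.081, adjusted p = 0.000432). SRFBP1, whose exons overlap those of LOX on the other strand, averaged 7.39 ± 1.46 FPKM in Q63E and 6.89 ± 0.624 FPKM in VEC (SD, n = 3 each; log2 fold change 0.078, adjusted p = 0.724). LOXL2, which acts on type IV collagen, was 1.37-fold lower, with 186, 191 and 169 FPKM in the Q63E libraries, against 251, 247 and 251 FPKM in the VEC libraries (log2 fold change −0.45, SE 0.050, adjusted p = 0.00145). The tested genes around LOXL2 had a median log2 fold change of −0.37. ENTPD4, which shares exon positions with it on the same strand, was lower as well (15.1 ± 0.410 FPKM in Q63E and 18.6 ± 0.330 FPKM in VEC). LOX held 25.1% ± 0.264 in Q63E and 10.6% ± 0.915 in VEC of the summed level of the 5 oxidases, and LOXL2 73.4% ± 0.423 in Q63E and 88.4% ± 1.0 in VEC. LOXL1, which is needed for elastic fibres, had 0.86, 0.86 and 1.98 FPKM in the Q63E libraries, against 0.22, 0.51 and 0.28 FPKM in the VEC libraries. Its groups did not overlap, its mean left it under the filter, and with no filter it did not pass (log2 fold change 0.71, adjusted p = 0.119 in limma). LOXL4 had 1.08, 1.25 and 1.47 FPKM in the Q63E libraries, against 1.81, 1.23 and 1.95 FPKM in the VEC libraries, and did not pass (log2 fold change −0.23, adjusted p = 0.387). LOXL3 averaged 1.23 ± 0.254 FPKM in Q63E and 0.86 ± 0.308 FPKM in VEC and did not pass either (log2 fold change 0.27, adjusted p = 0.374), while DOK1, which overlaps it on the other strand, averaged 18.1 ± 1.5 FPKM in Q63E and 11.4 ± 1.27 FPKM in VEC.

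**Figure D4:**
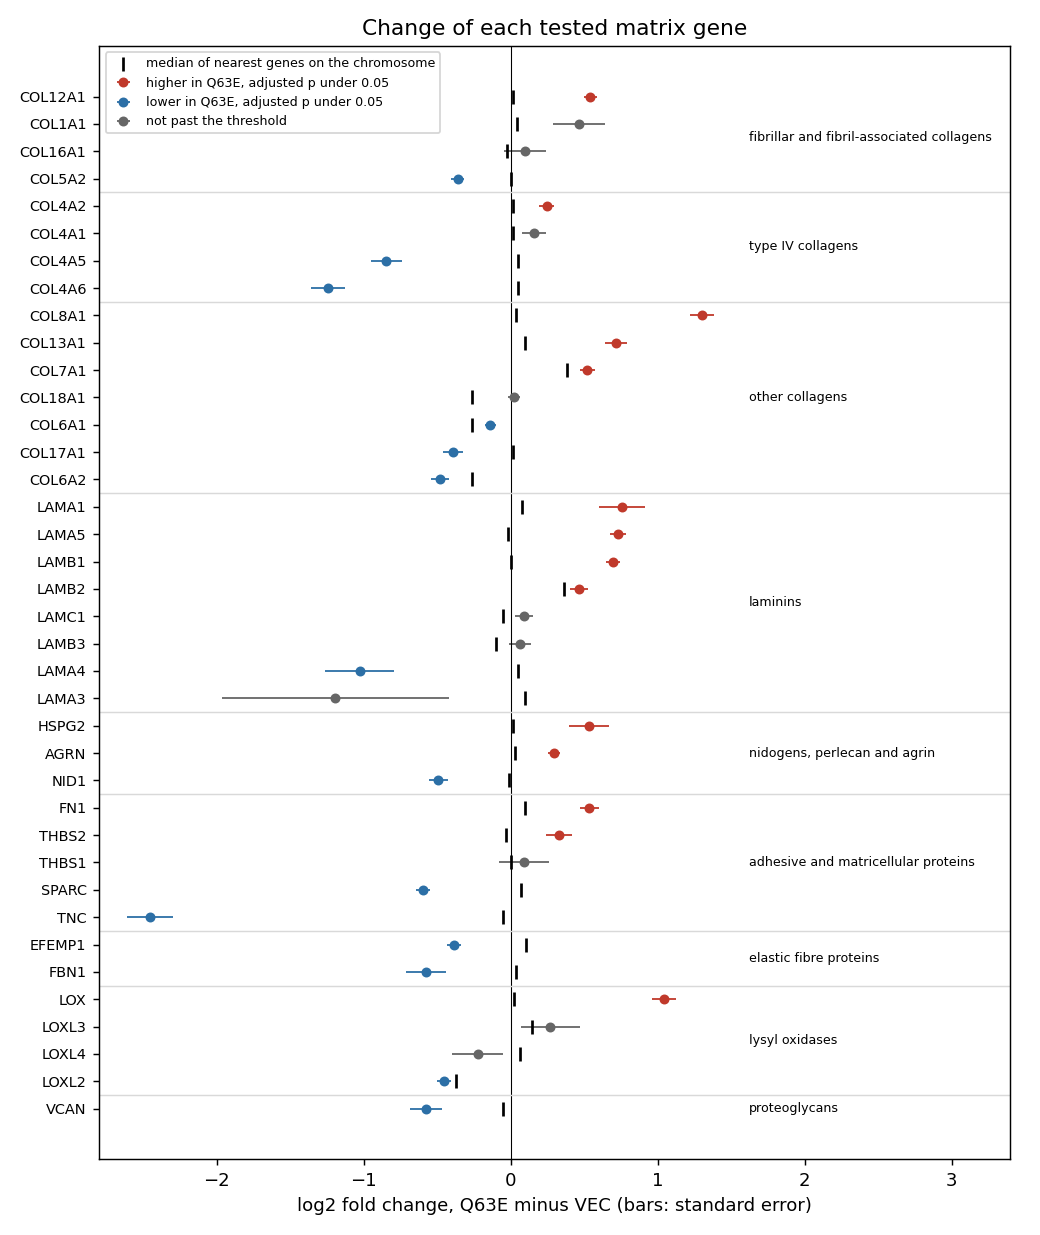
Log2 fold change of each tested matrix gene (x axis, Q63E minus VEC), with its standard error as a bar, ordered by protein class from top to bottom; red and blue points passed an adjusted p of 0.05 and grey points did not. The black tick is the median log2 fold change of the nearest tested genes on the chromosome, which lies near the point of COL7A1, LAMB2 and LOXL2.

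Each matrix gene was also set beside the median log2 fold change of up to 25 tested genes on each side, with matrix genes left out. The median was subtracted from the Q63E values as a fixed number. The p-values after subtraction, here and elsewhere, thus hold the spread of the gene's own libraries and not that of its neighbours. The neighbours of COL7A1 (chromosome 3 from 48564073 to 48595267, minus strand of GRCh38) had a median of 0.38, with 45 of 50 above 0. Around LAMB2 (chromosome 3 from 49121114 to 49133118, minus strand) the median was 0.36, with 46 of 50 above 0. COL7A1 and LAMB2 lie close together, so their neighbours can be in part the same genes. After subtraction of these medians COL7A1 had a log2 fold change of 0.14 (adjusted p = 0.123) and LAMB2 one of 0.10 (adjusted p = 0.295), so that neither passed. LOXL2, on chromosome 8, had neighbours with a median of −0.37, 46 of 50 below 0, and −0.085 (adjusted p = 0.288) was left. Around COL6A1, COL6A2 and COL18A1 at the end of chromosome 21 the median was −0.26. Against it COL6A2 had −0.22 (adjusted p = 0.0478 in limma), COL6A1 0.13 (adjusted p = 0.0518) and COL18A1 0.29 (adjusted p = 0.00445). The sign of COL6A1 was thus reversed, and COL18A1 passed as higher once this shared median was subtracted.

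For the other tested members the neighbour medians lay between −0.10 and 0.15, and each kept its side of the threshold. COL8A1, on chromosome 3 as well, had neighbours at 0.037 and 1.26 (adjusted p = 0.000367) after subtraction. TNC had −2.40 (adjusted p = 0.000349), LOX 1.02 (adjusted p = 0.000657), LAMA5 0.75 (adjusted p = 0.000565), COL4A6 −1.29 (adjusted p = 0.001) and FN1 0.44 (adjusted p = 0.00639). Counted this way, 13 matrix genes were higher and 12 lower.

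**Figure D5:**
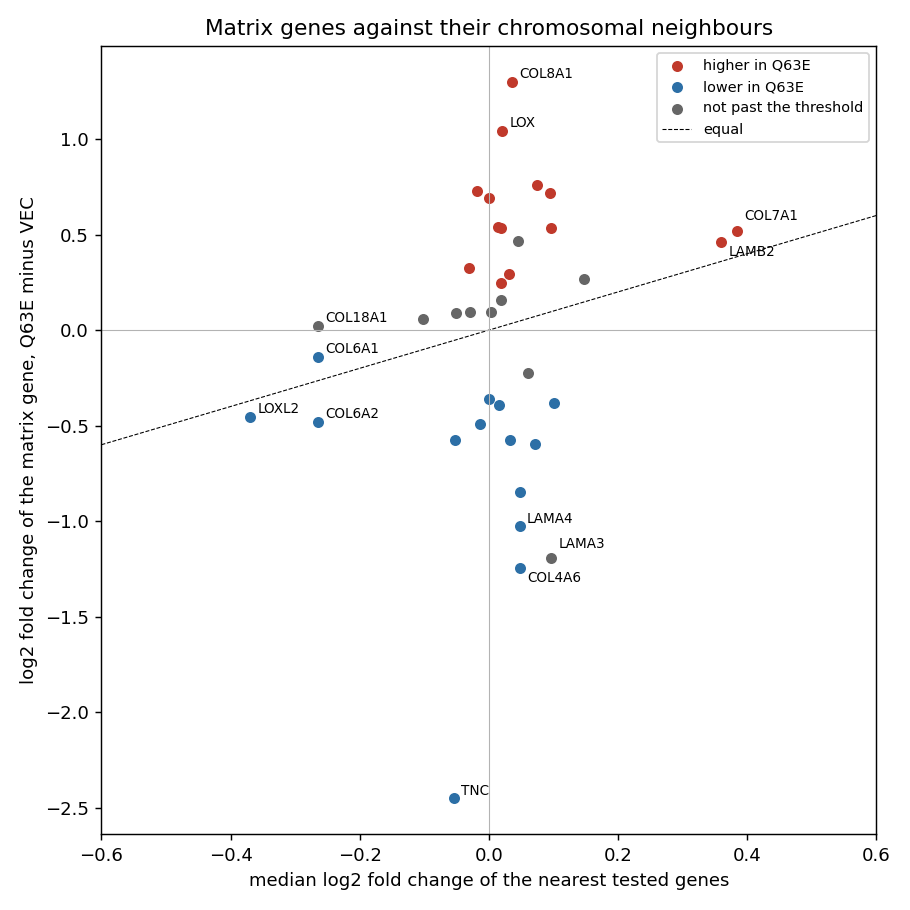
Each point is a tested matrix gene, with the median log2 fold change of its nearest tested neighbours on the x axis and its own log2 fold change on the y axis, both Q63E minus VEC; the dashed line marks equality. COL7A1, LAMB2 and LOXL2 lie near the line, away from 0 on both axes, and TNC, COL8A1 and LOX lie far above or below 0 with neighbours near 0.

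Genes that modify, fold and process procollagen were taken as the wider pathway. Of 32 such genes 25 were tested, and 3 rose, 8 fell and 14 did not pass. Over all genes tested, 11.3% were higher and 14.0% lower. The median log2 fold change of the 25 was −0.028. Among the genes that passed, the largest log2 fold changes were those of BMP1, CRTAP and PLOD3. BMP1, a procollagen C-proteinase that also cleaves the LOX precursor, had 7.94, 7.70 and 6.23 FPKM in the Q63E libraries, against 9.55, 11.2 and 14.2 FPKM in the VEC libraries (log2 fold change −0.60, SE 0.15, adjusted p = 0.0324). It lies on chromosome 8 among genes with a median of −0.30, and after subtraction −0.30 (adjusted p = 0.23) was left. CRTAP, part of the prolyl 3-hydroxylase complex, averaged 161 ± 3.22 FPKM in Q63E and 111 ± 3.90 FPKM in VEC (log2 fold change 0.53, adjusted p = 0.000359), with neighbours at 0.36 and 0.18 (adjusted p = 0.026) after subtraction. PLOD3, a lysyl hydroxylase with glycosyltransferase activity, averaged 62.9 ± 6.0 FPKM in Q63E and 86.5 ± 1.22 FPKM in VEC (log2 fold change −0.46, adjusted p = 0.00445), and its neighbours were at 0.0058. The remaining rises were those of P4HA1, a prolyl 4-hydroxylase subunit (88.9 ± 3.52 FPKM in Q63E and 66.5 ± 3.02 FPKM in VEC), and PLOD2, the telopeptide lysyl hydroxylase (198 ± 4.06 FPKM in Q63E and 155 ± 1.88 FPKM in VEC). SERPINH1 (HSP47), the collagen chaperone, was among the falls, with 83.0 ± 4.47 FPKM in Q63E and 98.5 ± 0.752 FPKM in VEC (log2 fold change −0.24, adjusted p = 0.0115).

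Chains absent from the list were mostly near 0. Of 24 further collagen and laminin chains 19 lay under the filter, 16 of them with a mean below 0.1 FPKM. COL27A1, a fibrillar collagen of cartilage, fell (8.81 ± 0.59 FPKM in Q63E and 11.9 ± 0.786 FPKM in VEC, SD, n = 3 each; log2 fold change −0.39, adjusted p = 0.014), and 3 did not pass. Of these 3, COL20A1 had 65.9 FPKM in VEC replicate 3 and was listed at 0 in every other library. It met the filter through that library alone.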

How the data were processed

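Libraries were made with the Illumina TruSeq kit from total RNA of T24 cells, per the labels' protocols. HISAT2 2.1.0, Bowtie2 and GRCh38.p10 are named in the submitters' processing notes, with no role or order. The authors deposited 1 value per gene and library, to 2 decimals, taken here as FPKM from its behaviour, since no header names the unit. FPKM as deposited would be per length and per library total. For the counting program, the strand setting and the read depth, the program or value is not given in the sources used here, so no counting interval is given, and a value of 0 is written as listed at 0. Rows without an Ensembl identifier (649 of 58882) were left out.

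Values were tested as log2(value + 1), with a mean of at least 1, in limma 3.58.1 (lmFit, eBayes with trend; R 4.3.3), on group alone, Q63E minus VEC, n = 3 each, adjusted over 13346 genes. The steps were tested on simulated data. Symbols came from a gene table (57392 identifiers matched), coordinates from GENCODE release 29 (57895), and promoters from RefSeq on GRCh38.p14 (42 of the 57 genes). The genes and lists were chosen with earlier results of these data known. Genes that passed, did not overlap between groups and changed by at least 0.5 on the log2 scale are given in every library, with the highest gene of each class that did not pass; other genes are given by mean or range, or beside a partner. Alternatives varied the pseudocount, the filter, the scaling, the variance model, the replicate block, the neighbour median and the libraries used. Leaving out libraries for the chain shares was added after seeing the data. 1 further chain is not reported here.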

Additional observations from a re-analysis of the deposited data

How the results depend on the processing

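The counts of 14 higher and 14 lower matrix genes stayed within 1.5 times under every alternative run: 11 to 14 were higher and 12 to 14 lower under the other settings, and 10 to 12 higher and 11 to 12 lower when 1 library was left out. Of the 28 calls, 18 held in every alternative run for the gene. No call was lost with a pseudocount of 0.1, with robust variances or with totals scaled without mitochondrial genes. COL6A1, HSPG2, THBS2 and FBN1 were lost with no filter, THBS2 with a minimum mean of 5, and COL7A1, LAMB2 and LOXL2 with the neighbour median subtracted, where COL18A1 passed. The fall of COL6A1 reversed to a log2 fold change of 0.13 with the neighbour median subtracted. Of the genes that did not pass, LAMB3 ran from −0.00058 to 0.14 and THBS1 from −0.075 to 0.27 when 1 library was left out, where the negative values are those without Q63E replicate 2 for LAMB3 and without VEC replicate 1 for THBS1. Over all genes 3383 passed, and 2350 to 2630 when 1 library was left out. Same-numbered libraries did not deviate together (r = −0.042, −0.0087 and −0.025), so the numbers do not pair them. With the replicate number as a block 2208 genes passed, 11 matrix genes were higher and 12 lower, and the calls of COL6A1, LAMA1, LAMA4, HSPG2 and THBS2 were lost; the cause was not tested. The share of LAMA3 in the laminin alpha level of VEC, 7.28% over 3 libraries, was 2.28% without VEC replicate 3 and up to 9.80% without another VEC library. Depth is unknown, so how far it limits the genes near 0 cannot be given.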

Other observations

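Among matrix genes outside the list and among the receptors for matrix, some genes rose and others fell, as over all genes tested. Of 54 further elastic fibre, matricellular and proteoglycan genes 23 were tested, 7 rose and 4 fell. Over all genes tested, 11.3% were higher and 14.0% lower. MFAP2, a microfibril protein, averaged 5.50 ± 1.43 FPKM in Q63E and 1.34 ± 0.201 FPKM in VEC (log2 fold change 1.46, adjusted p = 0.00227 in limma). FBLN1 (fibulin 1) averaged 56.2 ± 2.62 FPKM in Q63E and 115 ± 5.89 FPKM in VEC (log2 fold change −1.02, adjusted p = 0.000114). It lies on chromosome 22 among genes with a median of −0.41, and −0.61 (adjusted p = 0.000954) was left after subtraction. ECM1 averaged 3.19 ± 0.691 FPKM in Q63E and 7.20 ± 0.195 FPKM in VEC (log2 fold change −0.98, adjusted p = 0.00352). Of 18 receptors 14 were tested, 2 rose and 4 fell, where 11.3% of all genes tested were higher and 14.0% lower. ITGA2, the alpha chain of a collagen-binding integrin, averaged 14.1 ± 1.35 FPKM in Q63E and 26.6 ± 1.59 FPKM in VEC (log2 fold change −0.87, adjusted p = 0.000784). BCAM, a receptor for LAMA5-containing laminins, averaged 13.4 ± 1.11 FPKM in Q63E and 8.81 ± 0.575 FPKM in VEC (log2 fold change 0.55, adjusted p = 0.00485). DAG1 (dystroglycan), a receptor for laminin and agrin, averaged 34.3 ± 1.24 FPKM in Q63E and 24.5 ± 0.925 FPKM in VEC (log2 fold change 0.47, adjusted p = 0.00138). Its neighbours on chromosome 3 had a median of 0.34, and 0.13 (adjusted p = 0.138) was left. DAG1 lies close to LAMB2, so these neighbours can be in part the same genes as those of LAMB2.

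A single library at least 5 times above every other one, and at 5 FPKM or more, was seen for 18 to 37 tested genes in a Q63E library and for 36 to 49 in a VEC library. LAMA3 in VEC replicate 3 was the only one of the 57 matrix genes among them, with 49 such genes in that library in all. COL20A1, a collagen gene outside the list, was also among those of VEC replicate 3.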
